A study of Azumapecten farreri with 9 samples.

Results

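The lines named miR-216, miR-217 or miR-375 were examined in small RNA of scallop hemocytes, blood cells that carry out immune defence, from Azumapecten farreri (Chlamys farreri), the Zhikong scallop. A line is 1 entry of the authors' table, with a name, a sequence and 1 normalized count per library. Members were chosen by name, and 3 of 417 lines matched: mle-miR-216b-5p, mle-miR-216a-5p_R-1 and mle-miR-375-3p, with 2 lines named miR-216, 1 named miR-375 and 0 named miR-217. Animals received an injection of LPS exosomes, of normal exosomes or of phosphate-buffered saline (PBS), with 3 libraries for each and 9 in all. LPS is lipopolysaccharide, a bacterial surface molecule that provokes immune responses, and the labels link it to the first kind of exosome without saying how it was applied. Exosomes are small vesicles released by cells. All groups thus share an injection, and the labels give no dose, time, age, genotype, exosome source or number of animals per library. miR-216b-5p and miR-375-3p had been picked out for their levels with LPS exosomes in these same libraries, so those levels are given as a description, with no test.

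A miRNA guides silencing proteins to messenger RNAs by pairing, chiefly through its seed, bases 2 to 8 from the 5′ end. miR-375 is an old miRNA shared by vertebrates and many invertebrates, and in mammals it is best known from the hormone-secreting islet cells of the pancreas, where it restrains insulin release. In vertebrates miR-216 and miR-217 are encoded close together and are enriched in the enzyme-secreting cells of the pancreas. In fruit flies the miR-216 relatives miR-283 and miR-304 are encoded beside miR-12. The prefix mle marks a name from the sea slug Melibe leonina, cte one from the worm Capitella teleta, and R-1 a sequence 1 base shorter at its 3′ end than the registered one.

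The 3 members, the 2 predicted lines that share a seed with one of them, and the miR-12 line are printed to show how the miR-216 lines differ in the seed, which is in capitals. The deposited table writes T for U.
mle-miR-216b-5p: tAATATCAgctggtaatcctgag
mle-miR-216a-5p_R-1: tAATCTCAgctggtaattctga
PC-5p-26154_33: tAATATCAtctggtaatcctgaga
mle-miR-375-3p: tTTGTTCGttcggctcgcgtta
PC-3p-53355_9: tTTGTTCGttcggctcgcgttatt
cte-miR-12: tGAGTATTacatcaggtactga

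Aligned from their 5′ ends without gaps, mle-miR-216a-5p_R-1 and mle-miR-216b-5p matched at 20 of 22 bases. From miR-216b-5p to miR-216a-5p the differences were A5C, inside the seed, and C18T, with positions counted from 1 at the 5′ end. The 2 miR-216 lines therefore carry different seeds. The predicted line PC-5p-26154_33 matched miR-216b-5p at 22 of 23 bases, with G9T just past the seed and 1 more base at its 3′ end. PC-3p-53355_9 is the full miR-375-3p sequence plus 2 bases. Each of the 3 members had a sequence that no other line carried.

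Values are the authors' normalized counts unless stated otherwise. Nearly all values of a library were whole multiples of 1 step, read here as the worth of 1 read, and on that reading the listed lines held 7063405 to 15676183 reads per library. Normalized totals ran from 4002817 to 6337019 per library and were not equal, so levels are also given after scaling to equal totals, in ppm of the library's total. On the first 2 principal components of the 162 lines tested, 2 libraries lay far from the rest: LPS exosomes replicate 1, with a score of 15.4 on component 1 (32.1% of the variance), and PBS replicate 1, with 13.9 on component 2 (22.7%). The labels do not say that replicates came from separate animals or pools, so the spread between libraries may be technical. No list of hemocyte miRNAs was fixed, so the tissue label itself was not tested.

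miR-216b-5p was the most abundant member, and it stood highest with LPS exosomes. It had 758.2, 648.4 and 751.4 normalized counts with LPS exosomes, 301.9, 346.7 and 255.2 with normal exosomes, and 503.9, 309.9 and 284.7 with PBS. All 3 LPS exosome libraries lay above all 6 others, while the normal exosome and PBS libraries overlapped. Means were 719.3 ± 61.5 with LPS exosomes, 301.2 ± 45.8 with normal exosomes and 366.2 ± 120 with PBS (SD, n = 3 each), and PBS replicate 1 carried most of the spread in PBS. In bulk RNA, a change in the share of one kind of hemocyte and a change of the miRNA per cell cannot be told apart.

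The mean of miR-216b-5p with LPS exosomes was 1.96 times that with PBS and 2.39 times that with normal exosomes. The fitted log2 fold changes were 1.02 ± 0.27 against PBS and 1.26 ± 0.27 against normal exosomes (SE, limma on log2(value + 1), which understates the change of low lines). Without PBS replicate 1 the value against PBS was 1.27, and without PBS replicate 3 it was 0.86. Scaled to equal totals the line stood at 143.6, 142.4 and 187.7 ppm with LPS exosomes, at 47.6, 60.5 and 46.6 with normal exosomes, and at 117.4, 53.3 and 56.8 with PBS. The LPS exosome libraries kept above the others on that scale, with a log2 fold change of 1.61 against normal exosomes. By abundance the line ranked 44th to 48th of the 417 lines with LPS exosomes, 55th to 63rd with normal exosomes and 48th to 60th with PBS.

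miR-375-3p was the less abundant of the 2 members present in every library, and it stood lowest with LPS exosomes. It had 73.9, 43.8 and 88.4 normalized counts with LPS exosomes, 120.9, 135.8 and 129.3 with normal exosomes, and 135.7, 170.9 and 120.8 with PBS. All 3 LPS exosome libraries lay below all 6 others, and the normal exosome and PBS libraries overlapped. Means were 68.7 ± 22.8 with LPS exosomes, 128.7 ± 7.48 with normal exosomes and 142.5 ± 25.7 with PBS (SD, n = 3 each). The mean with LPS exosomes was 0.482 times that with PBS and 0.534 times that with normal exosomes.

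The fitted log2 fold changes of miR-375-3p were -1.09 ± 0.33 against PBS and -0.95 ± 0.33 against normal exosomes (SE, limma). The value against PBS was -0.80 without LPS exosomes replicate 2, the lowest library. Scaled to equal totals, miR-375-3p stood at 14.0, 9.61 and 22.1 ppm with LPS exosomes, 19.1, 23.7 and 23.6 with normal exosomes and 31.6, 29.4 and 24.1 with PBS. On that scale the LPS and normal exosome libraries overlapped, with a log2 fold change of -0.61, while both exosome groups lay below PBS. The separation of miR-375-3p between the exosome groups thus depended on how libraries were scaled.

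**Figure D1:**
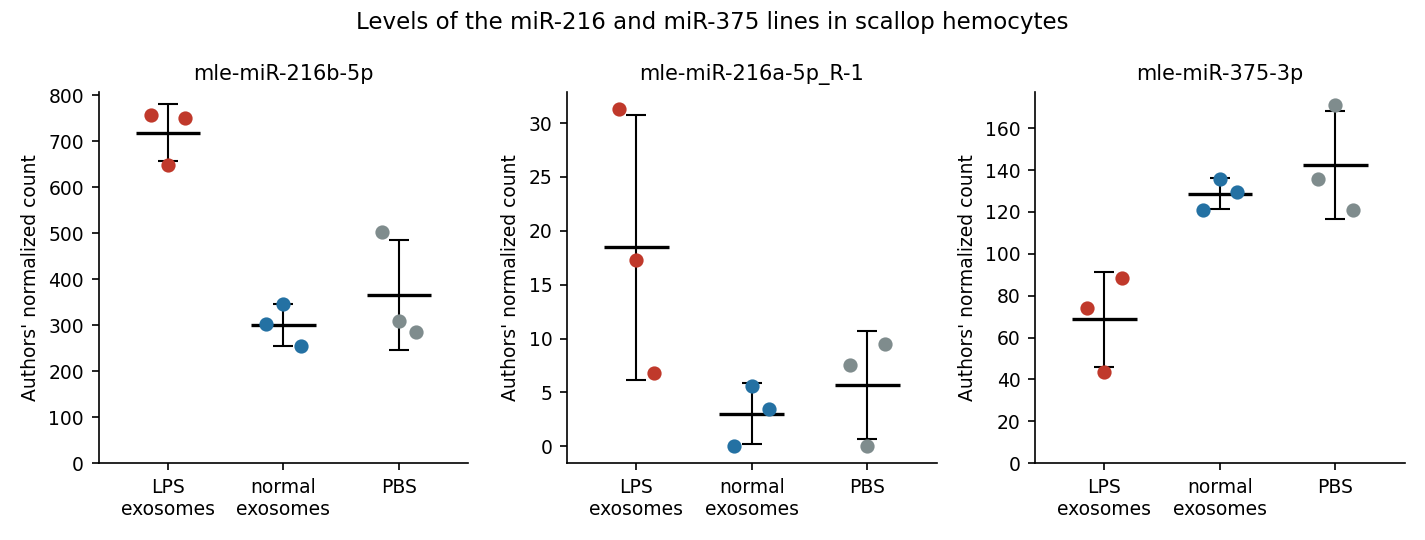
Normalized counts (vertical axes, each with its own range) of the 3 members in LPS exosomes, normal exosomes and PBS; dots are libraries, the horizontal bar the mean and the whiskers 1 SD of 3 libraries. LPS exosome libraries lie between 648.4 and 758.2 for miR-216b-5p, above the others, and between 43.8 and 88.4 for miR-375-3p, below the others.

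**Figure D2:**
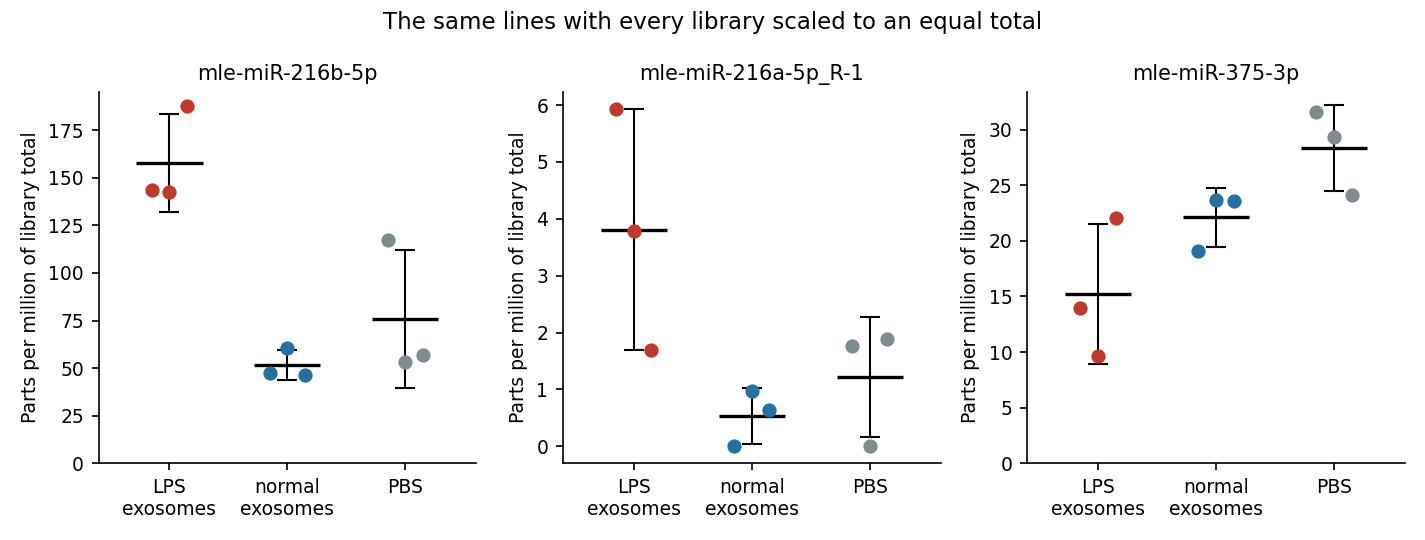
The same lines in ppm of each library's total (vertical axes), with libraries as dots, means as bars and 1 SD of 3 libraries as whiskers. miR-216b-5p keeps its separation in LPS exosomes, whereas for miR-375-3p the LPS exosome library at 22.1 lies inside the normal exosome range of 19.1 to 23.7.

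Non-overlapping libraries were common in the table. Both members tested, miR-216b-5p and miR-375-3p, had LPS exosome libraries that did not overlap the PBS libraries, as did 29.0% of the 162 tested lines. The same was true of both against normal exosomes, where 25.3% of the tested lines did not overlap. These shares are on the authors' scale, and none was counted at equal totals. Members were picked out for these differences, so nothing is read from the counts. By fitted log2 fold change miR-216b-5p was the 16th highest of 162 against PBS and the 12th highest against normal exosomes, and miR-375-3p the 22nd lowest and the 23rd lowest. The 2 contrasts share the LPS exosome libraries.

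miR-216a-5p, the second miR-216 line, was rare. It had 31.3, 17.3 and 6.80 normalized counts with LPS exosomes, 0, 5.56 and 3.50 with normal exosomes, and 7.57, 0 and 9.46 with PBS. On the authors' scale the LPS exosome libraries lay above the normal exosome libraries by a narrow margin, 6.80 against 5.56, and overlapped those of PBS. On the read scale these values are 86, 28 and 12 reads with LPS exosomes, 0, 12 and 10 with normal exosomes, and 14, 0 and 18 with PBS. The lowest LPS exosome library and the highest normal exosome library thus held 12 reads each, so reads alone did not separate these groups. No share of non-overlapping lines was counted for lines this low. The lowest value of 8 of 9 libraries was 5 reads, so by that floor a library listed at 0 can hold up to 4 reads. The lowest value of miR-216a-5p above 0 was 10 reads, so its 0 values may hide more. On the same scale miR-216b-5p had 532 to 2082 reads per library and miR-375-3p 71 to 370, and every read number of both miR-216 lines was even, so these are inferred depths.

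The line reached a value of 10 in 2 libraries, under the 3 required, and so it was not among the lines tested. With that filter left out, its log2 fold change was 2.43 ± 1.18 between LPS and normal exosomes (SE, limma). For LPS exosomes over PBS it was 1.89 ± 1.18. These values lean on the pseudocount, as the line was listed at 0 in a normal exosome library and in a PBS library. As a share of both miR-216 lines it made up 3.97%, 2.59% and 0.897% with LPS exosomes, 0%, 1.58% and 1.35% with normal exosomes, and 1.48%, 0% and 3.21% with PBS. These shares overlapped between all groups, and miR-216b-5p supplied over 96% of the miR-216 signal in every library.

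The predicted lines that share a member's seed were above 0 in fewer libraries than miR-216a-5p, which was above 0 in 7. PC-5p-26154_33, with the miR-216b seed, was above 0 in 3 libraries, at 13.6 in LPS exosomes replicate 2, 15.8 in normal exosomes replicate 2 and 5.25 in PBS replicate 3. PC-3p-53355_9, the longer form of miR-375-3p, was above 0 in 1 library, PBS replicate 1, at 4.87. Neither was tested.

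The ratio of miR-216b-5p to miR-375-3p inside a library does not depend on how libraries are scaled to each other. It was 10.3, 14.8 and 8.50 with LPS exosomes, 2.50, 2.55 and 1.97 with normal exosomes, and 3.71, 1.81 and 2.36 with PBS. The lowest ratio with LPS exosomes was thus above the highest of the 6 other libraries. On the log2 scale the means were 3.45 ± 0.41 with LPS exosomes, 1.22 ± 0.21 with normal exosomes and 1.33 ± 0.52 with PBS (SD, n = 3 each). Mean log2 ratios differed by 2.12 between LPS exosomes and PBS and by 2.23 between LPS and normal exosomes. The ratio is built from the same values that drew attention to both lines, so it too is a description.

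**Figure D3:**
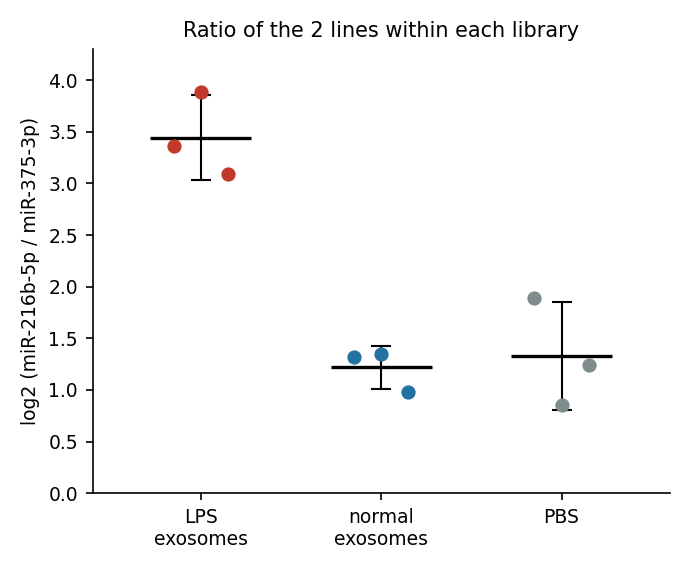
Log2 ratio of miR-216b-5p to miR-375-3p in each library (vertical axis), by group; dots are libraries, bars means and whiskers 1 SD of 3 libraries. LPS exosome libraries span 3.09 to 3.89, above the 0.86 to 1.89 of the other 6.

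Normal exosomes, the kind that the labels do not link to LPS, were set against PBS, and neither tested member passed. miR-216b-5p had a log2 fold change of -0.24 ± 0.27 (SE, 95% interval -0.84 to 0.35; limma adjusted p = 0.651), with 2 of 3 normal exosome libraries inside the PBS range. miR-375-3p had one of -0.13 ± 0.33 (SE, 95% interval -0.88 to 0.61; limma adjusted p = 0.894), with all 3 normal exosome libraries inside the PBS range. In this contrast 0 of 2 members were called, also at an unadjusted p under 0.05, against 4.32% of the tested lines called by limma and 16.7% at an unadjusted p under 0.05. The intervals leave room for changes of nearly 2-fold in the lower direction, and the contrast shares its libraries with those above. The sign of miR-216b-5p turned to 0.01 without PBS replicate 1, and that of miR-375-3p to 0.01 without PBS replicate 2. At equal totals the normal exosome libraries of miR-375-3p all lay below those of PBS, by a narrow margin of 23.7 against 24.1 ppm. The log2 fold change on that scale was -0.35 for miR-375-3p and -0.47 for miR-216b-5p (limma adjusted p = 0.707 and 0.605). The median over all tested lines was -0.22 there, and the share of lines that did not overlap on that scale was not counted.

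**Figure D4:**
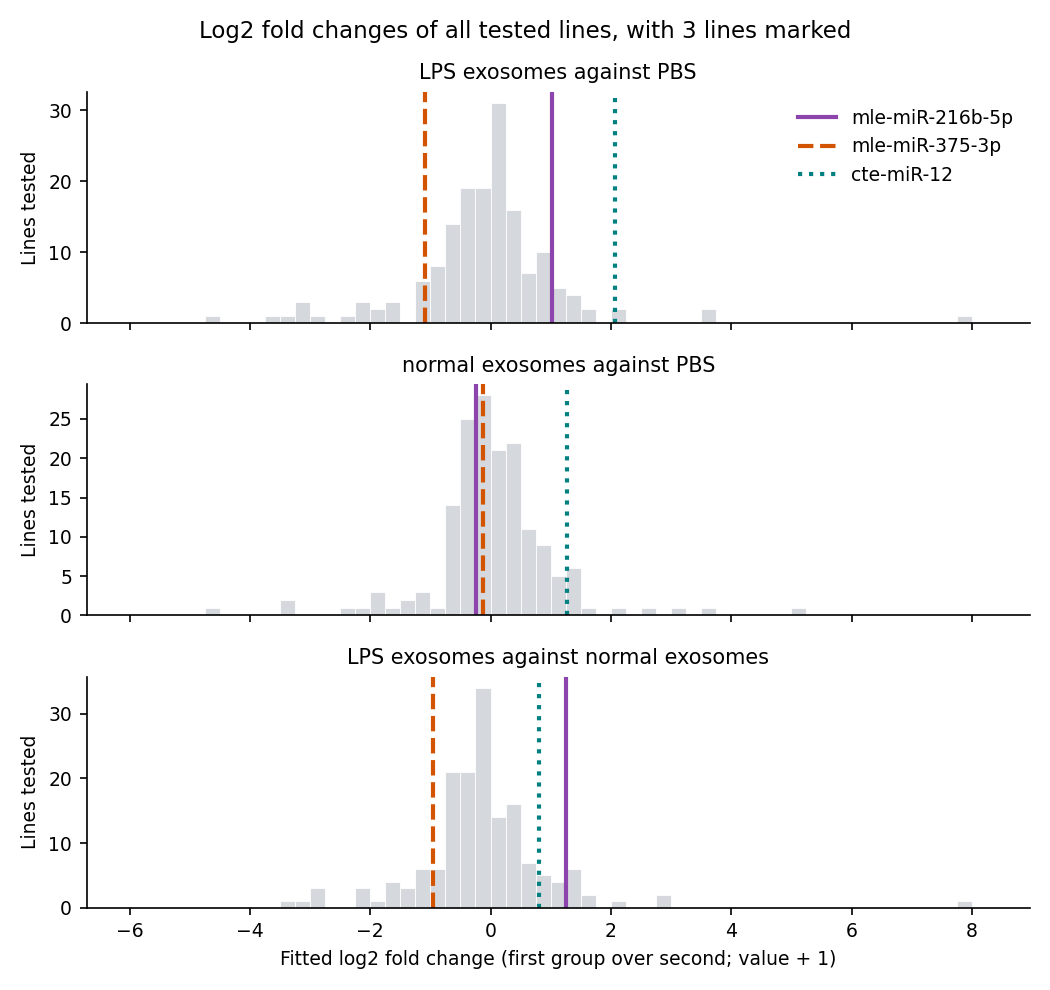
Numbers of lines (vertical axes) by fitted log2 fold change (horizontal axis, first group over second, value + 1) for the 162 tested lines in each contrast, with miR-216b-5p (solid), miR-375-3p (dashed) and miR-12 (dotted) marked. Against PBS miR-216b-5p sits at 1.02 with LPS exosomes and at -0.24 with normal exosomes, and miR-375-3p at -1.09 and -0.13.

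Among the relatives and cluster partners of miR-216 in invertebrates, 1 line was listed, cte-miR-12, and 0 lines were named miR-283 or miR-304. It had 27.7, 14.8 and 12.5 normalized counts with LPS exosomes, 7.94, 8.34 and 12.6 with normal exosomes, and 0, 12.1 and 5.25 with PBS. On this scale the LPS exosome libraries lay above those of PBS by a narrow margin and overlapped those of normal exosomes. At equal totals it stood at 5.24, 3.25 and 3.11 ppm with LPS exosomes, 1.25, 1.45 and 2.30 ppm with normal exosomes, and 0, 2.09 and 1.05 ppm with PBS. There the LPS exosome libraries lay above all 6 others, so the overlap of miR-12 between the exosome groups depended on the scaling. Its log2 fold changes were 2.07 ± 0.94 for LPS exosomes against PBS, 1.26 ± 0.94 for normal exosomes against PBS and 0.81 ± 0.94 between the exosome groups (SE; limma adjusted p = 0.209, 0.529 and 0.672), so it passed in none of the 3. These values rested on single libraries and on the pseudocount. Without PBS replicate 1, the library listed at 0, LPS exosomes against PBS gave 1.01 and normal exosomes against PBS 0.20, and without PBS replicate 2 they gave 2.87 and 2.06. A pseudocount of 10 gave 0.88 and 0.38, with 0.50 between the exosome groups, where leaving out LPS exosomes replicate 1 gave 0.48.

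Levels of the members were also set side by side across the 9 libraries, as Pearson's r of log2(value + 1). miR-216b-5p and miR-375-3p had an r of -0.72, and of -0.43 at equal totals. Both were picked out for their levels with LPS exosomes, high in one and low in the other, so a negative r follows from that choice. miR-216b-5p and miR-216a-5p had an r of 0.66, and of 0.76 at equal totals. miR-216b-5p and miR-12 had an r of 0.17, and of 0.33 at equal totals. miR-375-3p had an r of -0.42 with miR-12, and of -0.66 at equal totals. With miR-216a-5p it had an r of -0.67, and of -0.60 at equal totals. The points share library, depth and group. On the authors' scale the 161 other tested lines had r with miR-216b-5p from -0.72 to 0.75 between their 5th and 95th percentiles.

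The lines whose pattern over the 9 libraries was most like miR-216b-5p were the predicted line PC-3p-1990_749 (r = 0.90), mle-miR-10b-5p_R-1_2ss9GT21TA (0.89), mmu-mir-6240-p5 with mmu-mir-6240-p3, which share 1 sequence (0.88), mle-miR-263a-5p (0.82) and PC-3p-6282_207 (0.80). The miR-10b-5p line, whose family lies among Hox genes in many animals, had a log2 fold change of 1.09 ± 0.22 for LPS exosomes against PBS and -0.20 ± 0.22 for normal exosomes against PBS (SE, limma). The corresponding values of mle-miR-263a-5p, of a family known from sensory organs of insects, were 1.74 ± 0.30 and 0.43 ± 0.30. Both lines are named for their likeness to miR-216b-5p, itself picked out for its levels with LPS exosomes. Their higher levels with LPS exosomes therefore follow from that choice. PC-3p-1990_749 was listed at 0 in all 6 libraries without LPS exosomes, so its r rests on the contrast between groups. The mmu-mir-6240 lines shared with miR-216b-5p a high value in PBS replicate 1.

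The lines most like miR-375-3p were PC-3p-8255_152 (r = 0.95), PC-3p-10933_110 (0.90), PC-5p-14591_77 (0.83), chi-miR-29a-3p (0.83) and chi-miR-125a-5p_R+1 (0.81), where chi marks a name from goat. PC-3p-8255_152 stood at 29.9, 20.96 and 45.3 with LPS exosomes, 43.1, 58.4 and 66.4 with normal exosomes, and 71.4, 80.5 and 68.3 with PBS. Its libraries were lowest with LPS exosomes and overlapped those of normal exosomes. The other 4 were low lines, each at 0 in at least 1 LPS exosome library and nowhere above 50.05. Whether the chi lines are scallop miRNAs was not tested. Low levels of these 5 lines with LPS exosomes follow from the way miR-375-3p was picked out. At equal totals 4 of the 5 lines most like miR-375-3p, and 4 of the 5 most like miR-216b-5p, stayed among the 5.

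**Figure D5:**
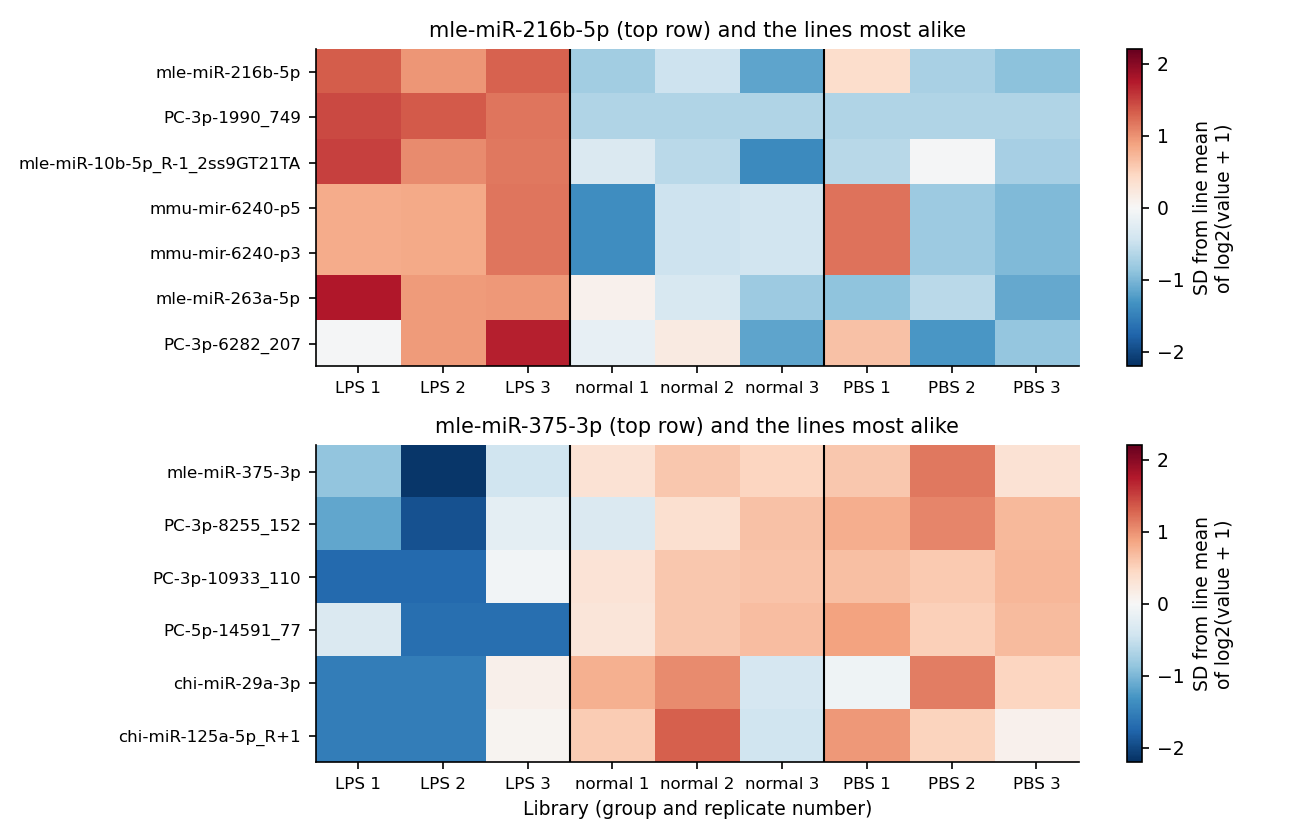
Each row is a line and each column a library, grouped as LPS exosomes, normal exosomes and PBS; colour gives log2(value + 1) in SDs from the line's mean. Lines like miR-216b-5p (r of 0.80 to 0.90) are red in LPS exosomes, except PC-3p-6282_207 in replicate 1, and lines like miR-375-3p (r of 0.81 to 0.95) are blue or pale there.

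Other miRNAs known from the gut, liver and pancreas of vertebrates formed a list of 9 lines, 5 of them tested, and none was called by limma in any of the 3 contrasts. Across all tested lines 4.32% were called in each contrast. Their median log2 fold changes were 0.20 for LPS exosomes against PBS, 1.25 for normal exosomes against PBS and -1.37 between the exosome groups, beside -0.06, -0.00 and -0.15 over all tested lines. The most abundant, lgi-miR-7, known from endocrine and neural cells, had log2 fold changes of 0.10 ± 0.46, -0.29 ± 0.46 and 0.39 ± 0.46 in the same order (SE; limma adjusted p = 0.913, 0.817 and 0.672). aca-miR-122-5p_R+1, of a family that marks vertebrate liver, had 0.20 ± 0.96, 1.25 ± 0.96 and -1.05 ± 0.96 (0.913, 0.53 and 0.628). Its level reached 523.7 in normal exosomes replicate 2, and without that library normal exosomes against PBS gave 0.41 and LPS against normal exosomes -0.21. The list's medians of 0.20 and 1.25 are the values of this line. aca-miR-194-5p, known from gut lining, had 0.20 ± 1.52, 1.57 ± 1.52 and -1.37 ± 1.52 (0.936, 0.634 and 0.672). With PBS, lgi-miR-7 ran from 494.1 to 607.7 and aca-miR-122-5p_R+1 from 21.6 to 123.5. There aca-miR-194-5p ran from 0 to 82.7, bta-miR-192_R-2 from 0 to 69.5 and aca-miR-148a-3p from 0 to 27.6. The prefixes aca, bta and lgi mark names from other species, and whether these lines are scallop miRNAs was not tested. At an unadjusted p under 0.05 the limma fit had 39, 27 and 26 of the 162 lines, or 24.1%, 16.7% and 16.0%.

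Markers of other tissues were counted in the same libraries. Muscle numbers gave 7 lines, 5 tested (4 sequences) and 0 called, with summed levels of 138267 to 220526 with LPS exosomes, 179221 to 230147 with normal exosomes and 132632 to 206292 with PBS. Lines numbered miR-133 reached up to 227475 in a library and those numbered miR-1 up to 4507. The list's median log2 fold changes were 0.01 for LPS exosomes against PBS, -0.02 for normal exosomes against PBS and -0.22 between the exosome groups. The line mle-miR-133-3p_2ss15TC19TC had log2 fold changes of 0.01 ± 0.21, 0.27 ± 0.21 and -0.26 ± 0.21, mle-miR-1-3p_1ss21AT had -0.20 ± 0.36, 0.01 ± 0.36 and -0.22 ± 0.36, and aca-miR-133a-3p_L-1R+3 had 0.47 ± 0.41, -0.02 ± 0.41 and 0.49 ± 0.41 (SE, limma; LPS exosomes against PBS, normal exosomes against PBS, LPS against normal exosomes). No line was named miR-206.

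Neural numbers gave 3 lines, 0 of them tested, summing to at most 8.74 with LPS exosomes, 0 with normal exosomes and 6.62 with PBS. No line was named miR-137 or miR-153. These sums leave out lgi-miR-7, also known from neural cells, which was counted with gut, liver and pancreas and reached 823.7 in a library. Epithelial and sensory numbers gave 9 lines and 6 tested. Their summed levels were 80048 to 99415 with LPS exosomes, 74498 to 112382 with normal exosomes and 99175 to 111528 with PBS. Nearly all of this was miR-96, whose lines reached up to 111801 in a library. Lines numbered miR-263 reached up to 1095, miR-8 up to 288 and miR-200 up to 18.2. No line was named miR-141, miR-429, miR-182 or miR-183. The list's median log2 fold changes were -0.23, -0.55 and 0.74 in the same order. Of these, mle-miR-263a-5p was called higher with LPS exosomes, at a log2 fold change of 1.74 against PBS and 1.31 against normal exosomes (limma adjusted p = 0.0105 and 0.0397). The call against normal exosomes was lost in 8 of the 9 fits that left out a library, and that against PBS without PBS replicate 3. The other tested miR-263 line, cte-miR-263_R+2_1ss10GT, was not called and had log2 fold changes of -0.37, -1.23 and 0.86 in the same order. Of the 6 tested lines, 2, 1 and 5 had a positive log2 fold change in that order. Lines called higher made up 3.09% of those tested against PBS and 3.70% against normal exosomes. The lists were chosen with earlier results of these data known, and mle-miR-263a-5p was also among the lines most like miR-216b-5p. Its calls are therefore no independent support. mle-miR-96a-5p_1ss19GC had log2 fold changes of -0.22, -0.15 and -0.07 and mle-miR-96b-5p_2ss1CA23GA -0.24, -0.52 and 0.28 in the same order of contrasts. The part of other cell types in the levels of miR-216b-5p and miR-375-3p was not tested.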

How the data were processed

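The authors deposited 1 table of 417 lines with a signal per library that the file headers call normalized counts; the labels and headers do not state the normalization. Per the labels' protocols, TruSeq small RNA libraries were read on a HiSeq, and reads from adapters, repeats and other RNA classes were taken out by ACGT101-miR. Aligner and build: not given in the sources used here. Here 99.5% of the 1990 values above 0 were whole multiples of a library's step (tolerance 0.01).

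A line was tested where 3 libraries or more had a value of at least 10, which left 162. R 4.3.3 with limma 3.58.1 and statmod 1.5.0 (trend and robust options) fitted log2(value + 1) to the 3 groups of all 9 libraries together, with 6 residual degrees of freedom, and Benjamini-Hochberg adjustment over all 162. Calls are at an adjusted p under 0.05. The fit was tested on simulated data. Members and lists were chosen with earlier results of these data known. Named were all members, lines sharing a seed, the 5 lines most like each tested member by Pearson's r, and each list's 3 most abundant tested lines plus called ones. The design had also planned a count test on recovered reads. It was not run, since the lowest values stand at 5 reads in 8 of 9 libraries and whole reads could not be recovered throughout by the criterion set for it. In normal exosomes replicate 2, 234 of 240 values above 0 were whole multiples. In normal exosomes replicate 3 it was 237 of 240, with a lowest value of 3.33 steps. Read numbers given here are inferred and serve as a description.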

Additional observations from a re-analysis of the deposited data

How the results depend on the processing

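Alternatives were equal totals, median-of-ratios scaling, no filter on low values, a pseudocount of 10, the replicate number as a block, and leaving out each of the 9 libraries. For both tested members the LPS exosome contrasts kept their direction under all 14: miR-216b-5p ranged from 0.86 to 1.27 against PBS and from 1.15 to 1.61 against normal exosomes, where 1.61, at equal totals, moved by more than the spread between replicates, and miR-375-3p from -1.29 to -0.80 and from -1.16 to -0.61. Over all tested lines the median log2 fold change at equal totals was 0.07 (LPS exosomes against PBS), -0.22 (normal exosomes against PBS) and 0.16 (between exosome groups), in place of -0.06, -0.00 and -0.15, so members are to be read against that shift. With single libraries left out, normal exosomes against PBS ran from -0.40 to 0.00898 for miR-216b-5p (without PBS replicate 1), from -0.24 to 0.00517 for miR-375-3p (without PBS replicate 2), and from -0.35 to 0.17 for their log2 ratio. The ratio ran from 1.88 to 2.40 for LPS exosomes against PBS and from 2.01 to 2.41 between exosome groups.

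Of 162 lines, 7 were called in each contrast. Normal exosomes against PBS gave 12 at equal totals, 4 with no filter and 3 with the replicate block. Without 1 library the counts ran from 1 to 12 (LPS exosomes against PBS; 1 without PBS replicate 3, 3 without PBS replicate 2, 12 without PBS replicate 1), from 2 to 8 (normal exosomes against PBS; 2 or 3 without normal exosomes replicate 1, 2 or 3 or PBS replicate 2 or 3) and from 3 to 10 (between exosome groups; 3 or 4 without any LPS exosome library, normal exosomes replicate 1 or 3, or PBS replicate 2). The planned count test on inferred reads was not run. Left without 1 library, 2 libraries remain in its group, and the pooled spread stands in for theirs.

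The replicate numbers were not taken as pairs in the main fit. Deviations of same-numbered libraries correlated from -0.30 to 0.29 (median 0.08), and those of other pairs from -0.345 to 0.365 (median -0.05). Of 9 libraries, 4 correlated best with their own number. With so few libraries these values cannot decide whether the numbers mark pairs. With the replicate block the other contrasts were within 1.5 times of 7, and the normal exosome contrast gave 3.

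With 1 library left out, aca-miR-122-5p_R+1 ran from 0.41 to 1.94 for normal exosomes against PBS and from -1.74 to -0.21 between exosome groups. Uncalled lines of the lists turned sign. At equal totals, between exosome groups, mle-miR-133-3p_2ss15TC19TC stood at 0.0945, mle-miR-1-3p_1ss21AT at 0.13 and mle-miR-96a-5p_1ss19GC at 0.28. For normal exosomes against PBS mle-miR-1-3p_1ss21AT stood at -0.21 at equal totals and -0.0111 with median of ratios. aca-miR-194-5p against PBS with LPS exosomes was -0.35 at a pseudocount of 10. Leaving out 1 library gave these ranges: LPS exosomes against PBS, lgi-miR-7 -0.15 to 0.37, aca-miR-122-5p_R+1 -0.61 to 0.90, aca-miR-194-5p -1.78 to 1.42, mle-miR-133-3p_2ss15TC19TC -0.17 to 0.16, mle-miR-1-3p_1ss21AT -0.64 to 0.14; normal exosomes against PBS, lgi-miR-7 -0.65 to 0.26, aca-miR-194-5p -0.41 to 2.78, mle-miR-1-3p_1ss21AT -0.18 to 0.13, aca-miR-133a-3p_L-1R+3 -0.26 to 0.32, mle-miR-96a-5p_1ss19GC -0.29 to 0.00926; between exosome groups, lgi-miR-7 -0.16 to 0.75, mle-miR-1-3p_1ss21AT -0.66 to 0.12, mle-miR-96a-5p_1ss19GC -0.23 to 0.0649, mle-miR-96b-5p_2ss1CA23GA -0.029 to 0.45. The causes were not tested.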

Other observations

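The inferred reads of both miR-216 lines were even numbers wherever they were above 0, in 9 of 9 libraries for mle-miR-216b-5p (532 to 2082 reads) and in 7 for mle-miR-216a-5p_R-1. cte-miR-12 was even in all 8 of its libraries. mle-miR-375-3p, at 71 to 370 reads, was not. Of the 196 lines above 0 in 5 or more libraries with whole inferred reads, 132 (67.3%) were even throughout and 64 were not, and no line had a larger common divisor. The source of the even values was not tested.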
